A study of Mus musculus with 6 samples.

Results

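The T cell receptor (TCR) β chain segments were examined in regulatory T cells (Treg) recovered from grafted mice. They were taken as all genes of the deposited count table whose symbol begins with Trbv (variable, V) or Trbj (joining, J). The rule found 44 genes of 29199, made up of 30 V and 14 J segments. The Treg were wild-type (WT) cells of B6 Foxp3-Thy1.1 mice that had been sorted, expanded in culture with recombinant human IL-2, recombinant human TGFβ1 and anti-CD3/CD28 beads, and transferred. Hosts were lethally irradiated C57BL/6 J (B6) mice or congenic B6 mice that carry CD45.1, reconstituted with B6 and semi-allogeneic B6D2F1 bone marrow. Naive conventional CD4+ T cells (Tconv) were injected with the Treg, and came from WT mice or from mice in which a floxed Hp1a allele, encoding heterochromatin protein 1α, had been deleted throughout the body with CMV-cre (HP1α KO). WT and HP1α KO Tconv donors were littermates on a mixed genetic background that included C57BL/6, and male mice were used. Treg were sorted back from the spleen 3 weeks after the graft, as Thy1.1+ CD4+ cells positive for CD45.2 and H-2Kb and negative for CD45.1 and H-2Kd. There were 3 libraries of total RNA from Treg with WT Tconv and 3 from Treg with HP1α KO Tconv, and the Treg themselves were WT in all 6. The labels do not say whether libraries came from separate mice or from separate Treg cultures, so p-values measure the spread between these libraries, which may be technical.

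In the thymus, a V, a diversity (D) and a J segment of the β locus are joined into a single exon, which is then spliced to a constant segment, Trbc1 or Trbc2. Joining is directed by recombination signal sequences beside each segment, built of a conserved heptamer, a spacer and a conserved nonamer. The V segment sets much of how a receptor meets peptide and MHC, and also whether it binds a given superantigen. The mix of V and J transcripts in a population of T cells therefore reports which receptors its cells carry, and a clone that has grown large raises its own V and J segment. Treg are a polyclonal population selected in part on self antigen.

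The 3' ends of 7 V segments that the results turn on are printed with the recombination signal that follows them, since this is where each V segment is joined. The heptamer is in capitals, after the last bases of the V exon. The 9 bases after a fixed spacer of 23 bases, taken as the nonamer, are also in capitals. No other spacing was tried, so they need not be the stretch closest to the consensus. The intervals, all on the plus strand of GRCm39, were Trbv13-1 at chr6:41093343-41093441, Trbv13-2 at chr6:41098707-41098805, Trbv13-3 at chr6:41107460-41107558, Trbv14 at chr6:41112491-41112589, Trbv15 at chr6:41118533-41118631, Trbv17 at chr6:41140431-41140529 and Trbv23 at chr6:41193401-41193499. Trbv13-1, Trbv13-2 and Trbv13-3 encode Vβ8.3, Vβ8.2 and Vβ8.1. Trbv14 encodes Vβ13, Trbv15 Vβ12, Trbv17 Vβ9 and Trbv23 Vβ20.
Trbv13-1: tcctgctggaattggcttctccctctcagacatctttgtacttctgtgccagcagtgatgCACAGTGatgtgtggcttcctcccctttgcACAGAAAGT
Trbv13-2: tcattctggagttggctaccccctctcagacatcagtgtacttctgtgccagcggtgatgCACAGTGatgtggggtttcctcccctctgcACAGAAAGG
Trbv13-3: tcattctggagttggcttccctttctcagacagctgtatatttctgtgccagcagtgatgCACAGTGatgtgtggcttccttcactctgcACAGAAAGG
Trbv14: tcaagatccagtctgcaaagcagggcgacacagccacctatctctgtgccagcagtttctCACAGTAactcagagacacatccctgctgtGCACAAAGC
Trbv15: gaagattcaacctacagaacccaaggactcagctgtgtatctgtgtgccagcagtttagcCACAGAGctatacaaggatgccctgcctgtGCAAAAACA
Trbv17: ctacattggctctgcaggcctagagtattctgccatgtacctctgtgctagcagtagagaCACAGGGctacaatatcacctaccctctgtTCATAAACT
Trbv23: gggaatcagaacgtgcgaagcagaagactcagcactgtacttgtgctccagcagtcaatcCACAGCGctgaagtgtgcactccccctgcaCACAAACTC

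The consensus heptamer CACAGTG was found exactly in 8 of the 22 V segments annotated as functional, among them all members of the Trbv13 family. Trbv14, Trbv15, Trbv17 and Trbv23 each had 6 of 7 heptamer bases. Each V heptamer was located by its opening bases CACA near the end of the exon. Those bases therefore matched by construction, and match counts could differ only over the rest of the heptamer. At the fixed spacing of 23 bases, the consensus nonamer ACAAAAACC was exact in Trbv1 alone. In Trbv23 the overlapping bases ACACAAACT lie closer to this consensus than the marked ones, which had 4 of 9 matches. In windows of 39 bases on either strand of the locus, 0.368% held the exact heptamer and 0.056% the exact nonamer. These windows were not anchored on CACA or on a spacing, so they are not a like-for-like background. The number of heptamer matches bore little relation to usage, with a Spearman coefficient of -0.0096 between matches and mean per-length share over the 22 functional V segments. For nonamer matches, counted at the fixed spacing, the coefficient was 0.25. These are descriptions across segments that share libraries, and no test was made.

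J segments are short, between 46 and 53 bases. Printed are the most used, Trbj2-7 and Trbj2-1, those whose shares did not overlap between groups, Trbj2-5 and Trbj2-2, the one with the highest ratio of a single library to the others, Trbj1-4, and the 3 without the joining-segment motif. Capitals mark the motif TTN GGN NNN GG, which encodes the conserved Phe-Gly-X-Gly of J segments. The motif was searched on the coding strand of each J segment and found in 11 of 14. Of 50-base windows on both strands of the locus, 0.929% held it. The intervals, on the plus strand, were Trbj2-7 at chr6:41520744-41520790, Trbj2-1 at chr6:41519688-41519737, Trbj2-5 at chr6:41520387-41520435, Trbj2-2 at chr6:41519891-41519941, Trbj1-4 at chr6:41511745-41511795, Trbj1-6 at chr6:41512488-41512540, Trbj1-7 at chr6:41512576-41512621 and Trbj2-6 at chr6:41520532-41520579.
Trbj2-7: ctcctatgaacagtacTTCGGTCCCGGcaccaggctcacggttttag
Trbj2-1: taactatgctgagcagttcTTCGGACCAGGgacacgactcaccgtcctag
Trbj2-5: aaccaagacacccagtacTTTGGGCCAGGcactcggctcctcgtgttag
Trbj2-2: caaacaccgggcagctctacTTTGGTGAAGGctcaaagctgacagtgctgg
Trbj1-4: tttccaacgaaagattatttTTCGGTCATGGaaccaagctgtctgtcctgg
Trbj1-6: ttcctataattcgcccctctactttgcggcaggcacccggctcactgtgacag
Trbj1-7: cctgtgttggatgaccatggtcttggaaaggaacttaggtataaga
Trbj2-6: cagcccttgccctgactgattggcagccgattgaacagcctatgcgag

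Trbj1-6, Trbj1-7 and Trbj2-6 had no match to these letters. Trbj2-6 is annotated as a pseudogene, whereas Trbj1-6 and Trbj1-7 are annotated as functional. Among the V segments, Trbv24 (Vβ17) is annotated as a pseudogene, and its reference exon carries an in-frame stop. Stops were also found in the frames of the pseudogenes Trbv7 (9 stops) and Trbv12-3 (4 stops) and, in the last bases of the V exon, in Trbv4, which is annotated as functional and had 1 stop at base 340 of its coding sequence. The stop of Trbv24 is printed because this pseudogene had counts in every library, and is in capitals in the bases at chr6:41195432-41195491.
Trbv24: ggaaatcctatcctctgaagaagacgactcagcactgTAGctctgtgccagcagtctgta

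Library totals lay between 87421755 and 119078882 counts. V segments held between 57981 and 64071 counts per library and J segments between 6427 and 7572, so the upper limit that 0 counts allow (3 counts) was at most 0.00517% of Trbv counts. Markers of Treg were high in all libraries, with a summed level of Foxp3, Il2ra, Ctla4, Ikzf2, Tnfrsf18 and Cd4 between 4007 and 4778 counts per 1000000 (CPM). Replicate 2 with HP1α KO Tconv had the lowest Foxp3, at 158 CPM against 200 to 254 in the others. Il2ra was also lowest there, at 124 CPM against 159 to 201, and Tnfrsf18 was highest, at 594 CPM against 385 to 442. Other lymphocyte lists were low, with 5.82 to 8.85 CPM for 2 CD8 T cell genes, 5.26 to 10.4 for 4 γδ T cell genes, 4.34 to 6.61 for 3 NKT cell genes and 14.1 to 22.5 for 4 B cell genes. Cd8a did not exceed 0.487 CPM. Replicate 3 with WT Tconv stood apart, since its 4 globin genes summed to 5147 CPM against at most 659 in the other 5 libraries, and its 7 neutrophil genes to 1818 CPM against at most 225. Without this library the γδ T cell genes summed to at most 8.03 CPM and the B cell genes to at most 21.01 CPM. In bulk RNA, fewer cells with a segment and less RNA of it per cell cannot be told apart.

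All 22 functional V segments had counts in every library, and usage was broad. Trbv13-2 took the largest mean share of Trbv counts. It held 9.86, 9.43 and 9.87% in the 3 libraries with WT Tconv and 11.97, 8.94 and 8.71% in those with HP1α KO Tconv. Trbv15 held 8.48, 8.14 and 12.3% with WT Tconv and 8.24, 7.39 and 8.90% with HP1α KO Tconv, so that replicate 3 with WT Tconv, the library with the high globin and neutrophil genes, was the highest. The part of those genes in its Trbv15 share was not tested. Trbv3 (Vβ16) ranged from 7.22 to 10.5%, with its highest value in replicate 2 with WT Tconv. The segment with the largest share was Trbv13-2 in 3 libraries, Trbv15 in 2 and Trbv3 in 1.

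**Figure D1:**
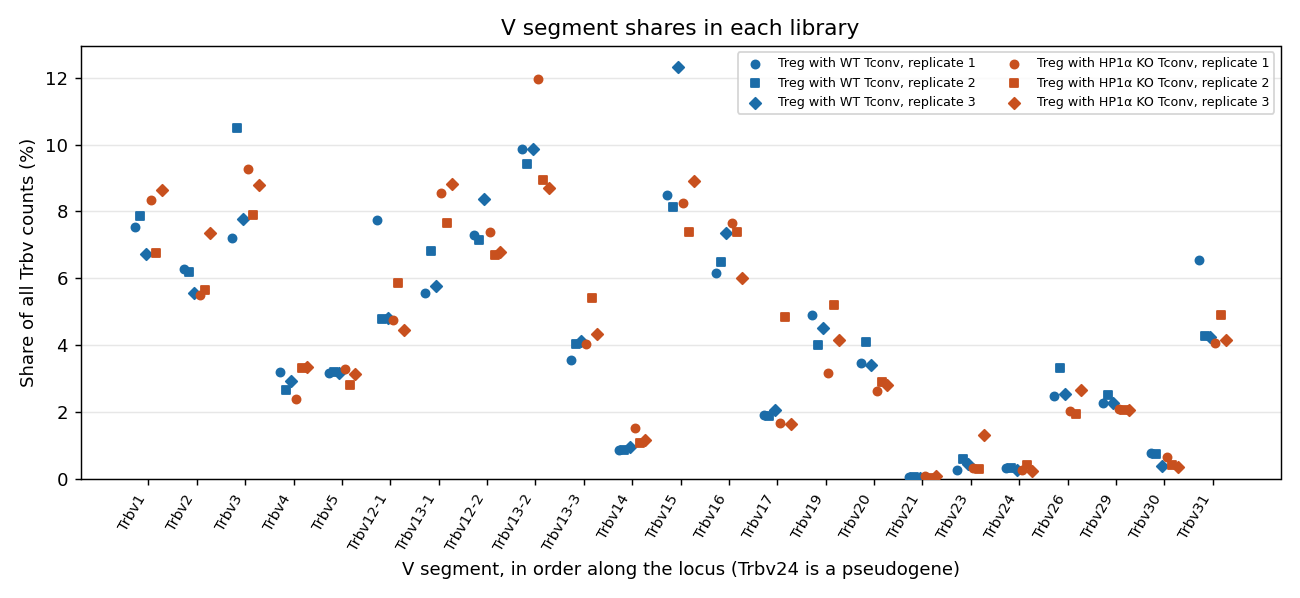
Share of all Trbv counts (y axis, percent) held by each functional V segment and the pseudogene Trbv24 (x axis, locus order) in the 6 libraries. Blue symbols are Treg with WT Tconv, orange symbols Treg with HP1α KO Tconv, and shapes mark replicates. Trbv17 in replicate 2 with HP1α KO Tconv sits at 4.83%, above 1.63 to 2.06% in the other 5 libraries.

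To compare levels between segments, counts were divided by exonic length, which ran from 335 to 566 bases in functional V segments. On this per-length scale Trbv13-2 held 11.3% ± 1.30 (SD, n = 6) and Trbv15 9.47% ± 1.84, which was 8.75% ± 0.605 (n = 5) and again the second highest without replicate 3 with WT Tconv. Trbv13-1 followed at 7.72% ± 1.48, Trbv12-2 (Vβ5.1) at 7.43% ± 0.592, Trbv3 at 7.41% ± 1.04 and Trbv1 (Vβ2) at 7.20% ± 0.751. The last 4 differed from each other by less than their SD over libraries. At the other end were Trbv14 with 1.154%, Trbv30 (Vβ18) with 0.655%, Trbv23 with 0.615% and Trbv21 with 0.0636%. Among the 21 functional segments with a mean of at least 100 counts, the highest and lowest per-length shares differed 18.4-fold.

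Pseudogenes were a minor part of V transcripts, with a summed share between 0.301 and 0.468%. Most of it was Trbv24, which had 151 to 273 counts and 0.248 to 0.428% of Trbv counts in every library. Trbv21, which is annotated as functional, had fewer counts than this pseudogene, between 22 and 52 per library. Trbv22 had 11 to 30 counts, and the other 6 pseudogenes in the table had at most 6 counts in any library. Another 5 annotated V pseudogenes had no row in the table and were not analysed here.

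The spread of a segment between libraries differed from segment to segment. Over the 22 functional V segments the coefficient of variation across the 6 libraries had a median of 16.8%, from 5.14% for Trbv5 (Vβ1) to 73.4% for Trbv23. Without replicate 3 with WT Tconv, Trbv12-2 was lower, at 4.36%, than Trbv5, at 5.73%. The value for Trbv23 includes replicate 3 with HP1α KO Tconv, which held 1.32% against 0.268 to 0.590% in the other libraries. Trbv5 held between 2.82 and 3.29% throughout. Counting error alone, with reads taken as independent molecules, would give coefficients between 1.29 and 5.48% for the 21 segments with at least 100 mean counts. Trbv4 (Vβ10) and Trbv5 share bases with the long non-coding gene 5830405F06Rik on the same strand, which had 221 to 331 counts, so part of their counts may have been divided between these genes.

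J usage was flatter. Trbj2-7 and Trbj2-1 had the highest shares, with means of 12.2 and 11.7% over the 6 libraries. Trbj2-7 held 11.99, 12.96 and 12.7% with WT Tconv and 10.6, 13.5 and 11.5% with HP1α KO Tconv. Trbj2-1 held 12.4, 11.6 and 10.8% with WT Tconv and 12.05, 12.4 and 11.2% with HP1α KO Tconv. The order of both changed from library to library. Trbj1-5 was the steadiest J segment, with 8.01 to 8.71%, and Trbj1-7, which lacks the motif, was the least used, with 1.56 to 2.91%.

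Segments of the J1 cluster besides Trbj1-5 and Trbj1-7 lay between 4.53 and 9.60%. In the J2 cluster Trbj2-3 held 7.52 to 10.98%, Trbj2-4 5.51 to 7.87%, Trbj2-2 4.69 to 6.66% and Trbj2-5 3.26 to 4.57%. The pseudogene Trbj2-6 held 4.09 to 4.93%, above Trbj2-5 on average. The 3 segments without the motif together made up 12.3 to 15.8% of Trbj counts. The library RNA was total RNA, and in the counts a J segment in a spliced V-D-J exon and one in unspliced RNA cannot be told apart. Trbj2-2 to Trbj2-7 also lie opposite long non-coding genes of the GENCODE annotation used here, which were not in the table. The counts were made with another annotation release.

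**Figure D2:**
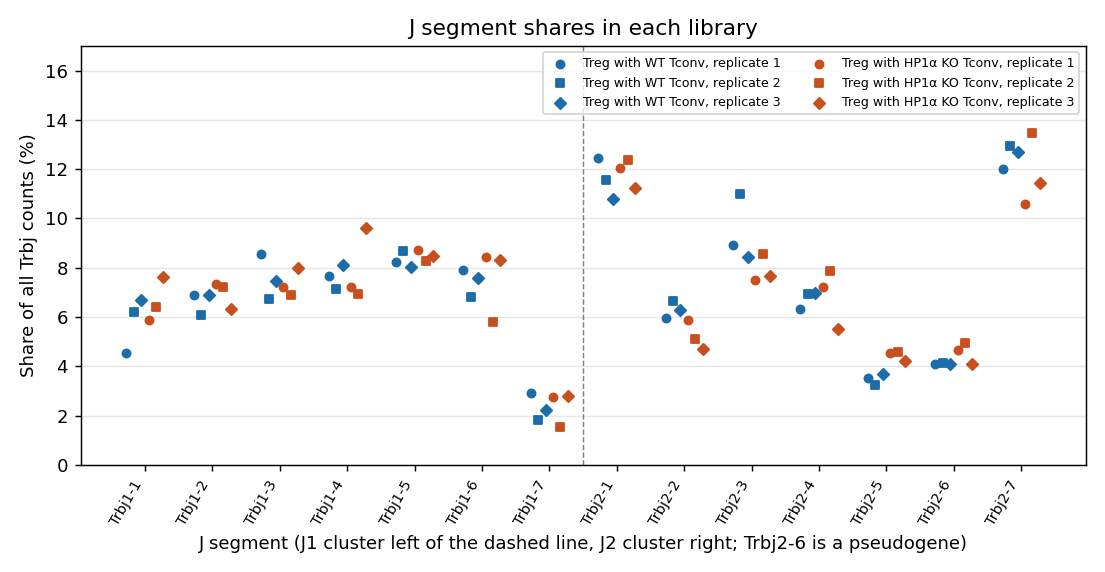
Share of all Trbj counts (y axis, percent) held by each J segment (x axis, locus order) in the 6 libraries, with colours and shapes for group and replicate. Trbj2-1 and Trbj2-7 lie between 10.6 and 13.5% in every library, and Trbj1-7 lies between 1.56 and 2.91%.

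The locus carries 2 J clusters, each behind its own D segment and before its own constant segment. The J1 cluster held 46.7, 43.5 and 47.0% of Trbj counts with WT Tconv and 47.6, 43.1 and 51.1% with HP1α KO Tconv. The group means were 45.7% ± 1.97 and 47.3% ± 4.02 (SD, n = 3 each), and the groups overlapped. Without replicate 3 with HP1α KO Tconv, the difference of 1.54 percentage points became -0.388. Trbc1 held 29.8 to 38.6% of the counts of both constant segments. The order of libraries differed between the measures, since replicate 1 with HP1α KO Tconv had the lowest Trbc1 share and the second highest J1 share. Trbc1 and Trbc2 were 95.6% identical over 521 aligned bases, so the split of reads between them is uncertain.

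Evenness of usage was described by the effective number of segments, the exponential of the Shannon entropy of the shares, which equals the number of segments when all are used alike. For V segments it was 17.7, 17.7 and 17.2 with WT Tconv and 16.9, 17.98 and 17.7 with HP1α KO Tconv, out of 30 segments in the table. The means were 17.53 ± 0.319 and 17.52 ± 0.540 (SD, n = 3 each), a difference within the spread between libraries. Pielou's evenness, the entropy over its maximum, lay between 0.832 and 0.8495. That maximum was taken over all 30 segments, 8 of them pseudogenes, which lowers the value. For J segments the effective number was 12.97, 12.8 and 13.1 with WT Tconv and 13.3, 12.8 and 13.1 with HP1α KO Tconv, out of 14, and Pielou's evenness lay between 0.965 and 0.979. The groups overlapped for both. These indices and the shares summed over several segments were not tested, since they are scores over the chosen genes.

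**Figure D3:**
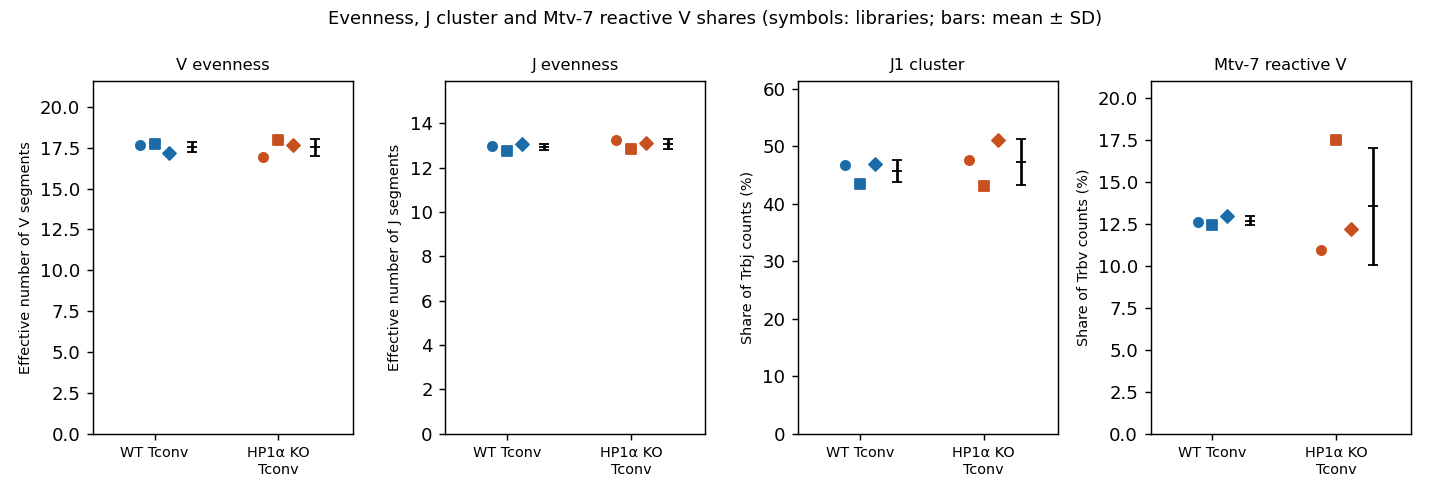
Effective number of V and of J segments, share of Trbj counts from the J1 cluster and share of Trbv counts from the 4 Mtv-7 reactive V segments (y axes from 0) for Treg with WT Tconv (blue) and HP1α KO Tconv (orange). Symbols are libraries and bars the mean ± SD of 3. The groups overlap in every panel, and replicate 2 with HP1α KO Tconv stands at 17.53% in the last.

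A single library stood out in 2 of the 30 V segments and in none of the 14 J segments, by the rule that its share was at least 2 times the median of the other 5 libraries with at least 50 counts. The first was Trbv17. It held 1.91, 1.89 and 2.06% with WT Tconv and 1.68, 4.83 and 1.63% with HP1α KO Tconv. Replicate 2 with HP1α KO Tconv had 3085 Trbv17 counts, and its 95% Wilson interval of 4.67 to 5.00% lay above every value of the other 5 libraries. The ratio to the median of the others was 2.56. The Trbv17 counts that would have to be removed to bring its share to that median amounted to 2.999% of all Trbv counts of the library. This library also had the lowest Foxp3 and Il2ra, and a link to its Trbv17 share was not tested.

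The second was Trbv23, a rarely used segment. It held 0.268, 0.590 and 0.448% with WT Tconv and 0.319, 0.312 and 1.32% with HP1α KO Tconv. Replicate 3 with HP1α KO Tconv had 803 counts, with a 95% Wilson interval of 1.23 to 1.41% and a ratio of 4.13. The Trbv23 counts that would have to be removed to bring its share to the median of the others amounted to 1.00% of the Trbv counts of this library. These intervals reflect counting error alone, as reads carried no molecular identifiers and may be copies of the same molecule.

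As a ratio to the median of the other libraries, J shares in these libraries moved less. In replicate 2 with HP1α KO Tconv the J segment farthest above the others was Trbj2-5, at 1.24 times their median, and Trbj1-7 was lowest at 0.567 times. In replicate 3 with HP1α KO Tconv Trbj1-4 was highest, with 9.60% and 1.33 times the median of the others, and Trbj2-2 was lowest at 0.784 times. The largest J ratio of any library was this 1.33 of Trbj1-4. Gene counts do not link a V to a J segment on the same transcript, so whether these belong to the same receptors was not tested.

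Below the rule, 5 more V segments with enough counts had a library at 1.5 times the median of the others or more. In Trbv30 this was not a single library, since it reached 1.84 times in replicate 1 with WT Tconv, 1.79 times in replicate 2 with WT Tconv and 1.602 times in replicate 1 with HP1α KO Tconv. Trbv12-1 (Vβ5.2) reached 1.62 times and Trbv31 (Vβ14) 1.55 times in replicate 1 with WT Tconv, Trbv14 1.59 times in replicate 1 with HP1α KO Tconv and the pseudogene Trbv24 1.51 times in replicate 2 with HP1α KO Tconv. In Trbv23, replicate 2 with WT Tconv also stood at 1.85 times the others. Trbv12-1 held 7.74% in replicate 1 with WT Tconv against 4.44 to 5.85% in the other 5. Trbv31, which lies behind the J and constant segments in the opposite orientation, held 6.55% there against 4.05 to 4.92%. Trbv15 in replicate 3 with WT Tconv was just short of this level, at 1.497 times.

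**Figure D4:**
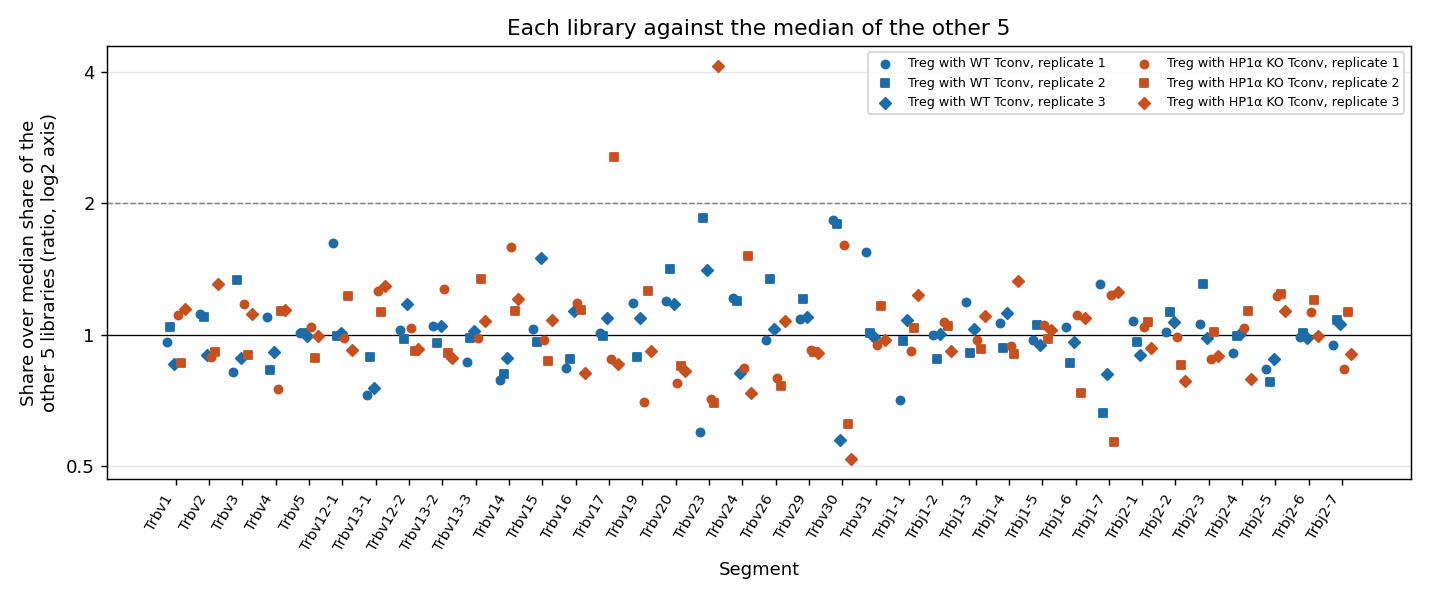
Share of each segment in a library over the median share of the other 5 libraries (y axis, ratio on a log2 scale) for V and J segments with enough counts (x axis). Symbols are libraries, the solid line marks equality and the dashed line a ratio of 2. Trbv23 at 4.13 and Trbv17 at 2.56 are the points above the dashed line.

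The groups were compared segment by segment with edgeR, fitted on all 18321 genes that passed its filter. Of the 44 segments, 38 passed, 24 V and 14 J. None was called at an adjusted p-value under 0.05, against 0% of all genes. At an unadjusted p-value under 0.05 there were 5 of 38, 4 V and 1 J segment, beside 14.5% of all genes tested. DESeq2 called 2 of the 35 segments to which it gave an adjusted p-value, Trbv13-1 and Trbv14, beside 4.35% of all genes. The median log2 fold change, HP1α KO over WT Tconv, was 0.14 for the 24 V and 0.09 for the 14 J segments, beside -0.0085 for all genes. Estimates were above 0 for 16 V and 11 J segments, beside 8890 of all 18321 genes. Without replicate 3 with WT Tconv, the library with the high globin and neutrophil genes, the medians were 0.04 for V and -0.016 for J segments, and estimates lay above 0 for 15 V and 6 J segments, beside 9574 of 18678 genes. Without replicate 3 with HP1α KO Tconv the medians were 0.034 and 0.0030, with 13 V and 7 J segments above 0, beside 8932 of 18915 genes. Without replicate 1 with WT Tconv the medians were larger, 0.198 and 0.230, with 19 V and 12 J segments above 0, beside 9575 of 18925 genes. Without replicate 2 with HP1α KO Tconv they were 0.136 for V and 0.193 for J segments. TMM-scaled levels of single segments in CPM did not overlap between groups for Trbv13-1, Trbv14, the pseudogene Trbv22 and Trbj2-5, all higher with HP1α KO Tconv, beside 11.5% of all genes in that direction. None was lower without overlap, beside 11.6% of all genes, so that 4 of 38 segments stood beside 23% of all genes in either direction. In shares, 2 of the 22 functional V segments were higher and 2 lower with HP1α KO Tconv without overlap. Of the 14 J segments, 1 was higher and 1 lower in share without overlap. Shares have no value over all genes to set beside these counts.

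Trbv13-1 had the smallest p-value. It held 5.56, 6.80 and 5.77% of Trbv counts with WT Tconv and 8.56, 7.66 and 8.81% with HP1α KO Tconv. Every value with HP1α KO Tconv lay above every value with WT Tconv. The log2 fold change was 0.58 ± 0.13 (SE), with an unadjusted p = 0.0025 and an adjusted p = 0.209 by edgeR, and DESeq2 gave an adjusted p of 0.00288. Trbv13-1 lies near Trbv13-2, with Trbv12-2 between them, and is its relative, with 87.9% identity. Trbv13-2 gave a log2 fold change of 0.14 ± 0.12, which was 0.012 without replicate 1 with HP1α KO Tconv. The third member of the family, Trbv13-3, gave 0.36 ± 0.12 with an unadjusted p = 0.0163 and an adjusted p = 0.247 by edgeR. The 3 marker genes of NKT cells, which often use Vβ8 chains, summed to 5.44 to 6.61 CPM with WT Tconv and 4.34 to 5.25 CPM with HP1α KO Tconv. The sort was on Thy1.1, the Foxp3 reporter, and the part of NKT cells in these values was not tested.

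Trbv14 held 0.859, 0.883 and 0.963% with WT Tconv and 1.53, 1.09 and 1.16% with HP1α KO Tconv, so the groups did not overlap. Its log2 fold change was 0.60 ± 0.15 with an unadjusted p = 0.0031 and an adjusted p = 0.209 by edgeR, and DESeq2 gave an adjusted p of 0.0147. Relative to the summed Trbv counts, the log2 fold changes of Trbv13-1 and Trbv14 were 0.46 and 0.48, on a scale where the median of all genes moved to -0.13. Trbv16 (Vβ11) gave 0.19 ± 0.08 with an unadjusted p = 0.0444 and an adjusted p = 0.331 by edgeR. Relative to the summed Trbv counts Trbv16 gave 0.073 with an unadjusted p = 0.560 by edgeR, and Trbv13-3 gave 0.24 with an unadjusted p = 0.101.

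Of the V segments with estimates below 0, Trbv20, Trbv26 and Trbv30 had the smallest p-values. Trbv20 (Vβ15) held 3.42 to 4.10% with WT Tconv and 2.65 to 2.91% with HP1α KO Tconv, without overlap in share. Its log2 fold change was -0.28 ± 0.13 with an unadjusted p = 0.0616 and an adjusted p = 0.374 by edgeR, and its CPM overlapped between groups. Without replicate 2 with WT Tconv it was -0.13. Relative to the summed Trbv counts it was -0.39, with an unadjusted p = 0.0064 and an adjusted p = 0.248 by edgeR. Trbv26 (Vβ3) gave -0.22 ± 0.21, and -0.0034 without replicate 2 with WT Tconv but -0.42 without replicate 3 with HP1α KO Tconv. Trbv30 gave -0.32 ± 0.37, and leaving out each library in turn moved it from -0.62 to -0.13, the latter without replicate 1 with WT Tconv. The highest shares of Trbv26 and Trbv30 were 3.33% in replicate 2 and 0.770% in replicate 1, both with WT Tconv.

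The segments with a single-library excess had large errors. The log2 fold change of Trbv17 was 0.58 ± 0.47 and became -0.10 without replicate 2 with HP1α KO Tconv. That of Trbv23 was 0.73 ± 0.74 and became -0.39 without replicate 3 with HP1α KO Tconv. Trbv15 gave -0.10 ± 0.13, and 0.03 without replicate 3 with WT Tconv. Among the other highly used segments, Trbv12-2 gave -0.0031 ± 0.07, Trbv3 0.14 ± 0.19 and Trbv1 0.22 ± 0.15. Leaving out each library in turn moved Trbv3 from 0.016 to 0.39 and Trbv1 from 0.096 to 0.33, with the lowest value of both without replicate 3 with WT Tconv.

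**Figure D5:**
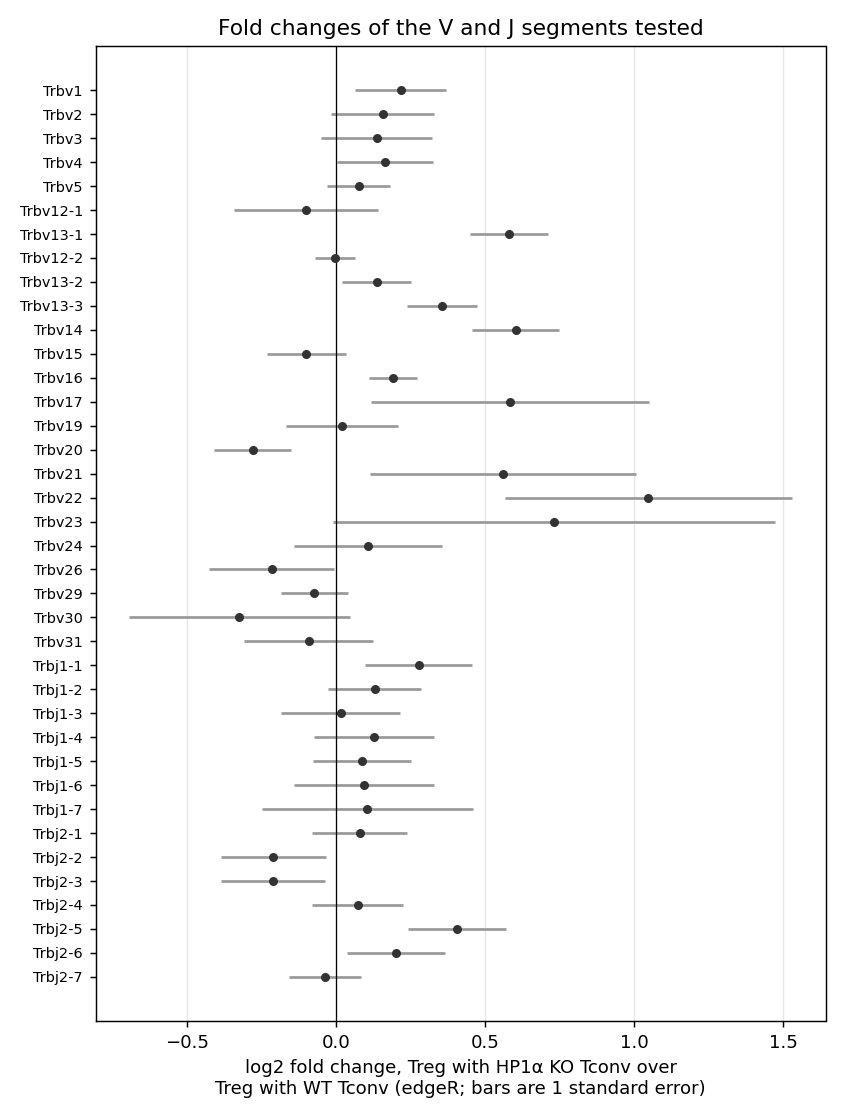
log2 fold change between groups, positive where higher with HP1α KO Tconv (x axis), of the 38 V and J segments tested by edgeR (y axis, locus order). Points are estimates and bars 1 standard error. Trbv13-1 at 0.58 and Trbv14 at 0.60 lie farthest from 0 relative to their error.

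Of the J segments, Trbj2-5 had the smallest p-value. It held 3.51, 3.26 and 3.70% of Trbj counts with WT Tconv and 4.55, 4.57 and 4.20% with HP1α KO Tconv, without overlap. Its log2 fold change was 0.41 ± 0.16 with an unadjusted p = 0.0365 and an adjusted p = 0.311 by edgeR, and relative to the summed Trbj counts it was 0.35 with an unadjusted p = 0.163. Trbj2-2 held 5.98, 6.66 and 6.30% with WT Tconv and 5.90, 5.103 and 4.69% with HP1α KO Tconv, also without overlap in share. It gave -0.21 ± 0.18, or -0.11 without replicate 2 and -0.34 without replicate 1, both with HP1α KO Tconv. Trbj2-3 gave -0.21 ± 0.17, and -0.052 without replicate 2 but -0.37 without replicate 3, both with WT Tconv. Trbj1-1 gave 0.28 ± 0.18, and 0.11 without replicate 3 with HP1α KO Tconv. The other 9 functional J segments had log2 fold changes between -0.03 (Trbj2-7) and 0.13 (Trbj1-2), with 0.016 for Trbj1-3, each within its standard error of 0. Leaving out each library in turn moved Trbj1-2 from 0.053 to 0.27. The pseudogene Trbj2-6 gave 0.20 ± 0.16, or 0.097 without replicate 3 with WT Tconv.

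Donor B6D2F1 cells carry the Mtv-7 superantigen of their DBA/2 parent, which binds receptors with Vβ6, Vβ7, Vβ8.1 and Vβ9. The V segments for these are Trbv19, Trbv29, Trbv13-3 and Trbv17. Together they held 12.6, 12.5 and 12.98% of Trbv counts with WT Tconv and 10.97, 17.53 and 12.2% with HP1α KO Tconv. The means were 12.7% ± 0.266 and 13.6% ± 3.49 (SD, n = 3 each), and the groups overlapped. Without replicate 2 with HP1α KO Tconv the difference of 0.869 percentage points became -1.12, and without Trbv17 in the list it was 0.107.

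None of the 4 segments was called by edgeR. Trbv19 held 4.90, 4.01 and 4.52% with WT Tconv and 3.16, 5.21 and 4.15% with HP1α KO Tconv, and its log2 fold change was 0.02 ± 0.19. Trbv29 held 2.27 to 2.52% with WT Tconv and 2.06 to 2.09% with HP1α KO Tconv, without overlap in share, and gave -0.07 ± 0.11. Trbv13-3 held 3.55, 4.04 and 4.12% with WT Tconv and 4.04, 5.42 and 4.34% with HP1α KO Tconv. Trbv19, Trbv13-3 and Trbv17 each had their highest share in replicate 2 with HP1α KO Tconv, and Trbv29 in replicate 2 with WT Tconv.

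Whole profiles were compared by the share of counts that would have to change segment to turn the profile of a library into that of another. For V segments this distance was 7.25 to 10.0% in the 6 pairs of libraries within a group, with a mean of 8.40%, and 6.91 to 10.9% in the 9 pairs between groups, with a mean of 9.21%. The closest pair was replicate 2 with WT Tconv and replicate 3 with HP1α KO Tconv, which belong to different groups. For J segments it was 4.47 to 8.89% within groups, with a mean of 6.04%, and 5.25 to 8.81% between groups, with a mean of 6.33%. As a check for a library deposited more than once, chi-square per degree of freedom was at least 42.8 for V and at least 3.70 for J segments in every pair. This sets libraries against counting error only, with reads taken as independent, and says nothing about the groups.

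The summed level of V segments was 625, 639 and 547 TMM-scaled CPM with WT Tconv and 637, 639 and 689 with HP1α KO Tconv, and that of J segments 78.8, 72.6 and 60.2 against 77.4, 64.3 and 78.7. Replicate 3 with WT Tconv was lowest in both. The groups overlapped on this scale, with and without that library, but for V segments by little, and with library totals not scaled by TMM the summed V level did not overlap, with 538 to 626 CPM with WT Tconv and 638 to 696 CPM with HP1α KO Tconv. Per 100 counts of the constant segments there were 42.3 to 48.9 V counts. Of the other genes of the receptor, 13 were listed (constant, D and CD3 genes, Trac, Ptcra, Rag1, Rag2 and Dntt), of which 10 were tested. None was called by edgeR, 1 of 10 had an unadjusted p-value under 0.05, beside 14.5% of all genes, and 7 estimates lay above 0 and 3 below, beside 8890 of 18321 above 0 over all genes. That 1 was Trbd1, the D segment of the first cluster, which had 1063, 1082 and 1001 counts with WT Tconv and 1148, 1297 and 1204 with HP1α KO Tconv. It gave 0.35 ± 0.13 with an adjusted p = 0.271 by edgeR, and 0.23 without replicate 3 with WT Tconv. Trbd2 gave 0.03 ± 0.11, Trbc1 0.14 ± 0.09 (0.073 without replicate 3 with HP1α KO Tconv) and Trbc2 0.07 ± 0.12.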

How the data were processed

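Total RNA of 6 libraries was sequenced in 2 groups of 3. According to the methods and the submitters' processing notes, the authors trimmed reads, aligned them with STAR to GRCm39 (also given as mm39) and deposited estimated counts per gene from Salmon, held as whole numbers and not normalized. Salmon divides ambiguous reads between similar or overlapping segments by a model. Shares were counts of a segment over all Trbv or all Trbj counts of its library. Each library gave a share with a 95% Wilson interval. edgeR version 4.0.16 (R version 4.3.3, TMM, filterByExpr, glmQLFit with robust estimation, glmQLFTest, group as the sole term) was fitted to 18321 genes, with Benjamini-Hochberg adjustment over all of them. Standard errors were obtained by dividing the size of each log2 fold change by the root of its F statistic. CPM in comparisons of single segments used TMM-scaled totals, and marker sums used raw totals. DESeq2 version 1.42.0, other scalings and filters, a replicate block and leaving out each library were alternatives. The scripts were tested on simulated data. Positions, classes, lengths and sequences came from GENCODE vM39 on GRCm39, and 44 of 44 segments matched by identifier. The authors counted with a different release, an Ensembl annotation of the same assembly, so lengths, classes and overlapping genes may differ from those used in counting. Names given for V segments were the 6 with the highest per-length share, the 4 that react to Mtv-7, the 3 in each direction with the smallest p-value among V segments and those with a single-library excess. All functional J segments were named, some of them only as members of a range. Segments with other features (Trbv4, Trbv5, Trbv7, Trbv12-1, Trbv12-3, Trbv16, Trbv21, Trbv22, Trbv24, Trbv31) were named after their values were seen. The members and lists were chosen with earlier results of these data known.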

Additional observations from a re-analysis of the deposited data

How the results depend on the processing

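DESeq2 called 2 segments (log2 fold changes of 0.58 for Trbv13-1 and 0.60 for Trbv14) where edgeR called 0, and the cause was not tested. Each of the other alternatives, which were relative log expression scaling, scaling to summed Trbv or Trbj counts, no filter beyond 1 count, at least 10 counts in every library, the replicate block and leaving out each library, called 0. Over all genes, the same fits called 38 with no filter beyond 1 count, 2 with scaling to summed Trbv counts, 1 with the replicate block, between 0 and 2 when a library was left out and 0 in the others. In these fits 3 to 6 segments had an unadjusted p under 0.05, beside 9.87 to 16.4% of all genes. The adjusted p of Trbv13-1 by edgeR ranged from 0.127 to 0.437 over these alternatives and that of Trbv14 from 0.136 to 0.437. Libraries with the same replicate number had correlations of -0.042, 0.182 and 0.117 between their deviations from the group means. The highest of all pairs was the 0.182, but not every library correlated best with its own number. The labels give only a shared number, and these few correlations cannot settle whether replicates were paired. With the replicate block 0 segments were called and 3 of 38 had an unadjusted p under 0.05, beside 11.4% of all genes. The count of V segments with a library in excess was 7 at a threshold of 1.5 times and 1, Trbv23, at 3 times, which follows from the threshold. Of these 7, Trbv30 was in excess in 3 libraries and Trbv23 in 2. It was 2 with at least 200 counts and with CPM in place of shares.

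Leaving out each library moved the difference between groups from -0.240 to 0.288 for the effective number of V segments (-0.355 with the Trbv12 and Trbv13 families summed and -0.126 without Trbv17 and Trbv23), from 0.0355 to 0.246 for that of J segments, from -0.388 to 3.62 percentage points for the J1 cluster and from -1.12 to 2.16 for the Mtv-7 reactive segments. Scaling to summed Trbv counts moved the median of all genes to -0.13. The shift was not the same for every gene, with Trbv30 going from -0.32 to -0.41 and Trbv23 from 0.73 to 0.58. Estimates near 0 changed sign, to -0.10 for Trbv19, -0.042 for Trbv5, -0.092 for Trbd2, -0.046 for Trbc2, -0.051 for Trac, -0.043 for Cd3g and -0.10 for Cd247. Scaled in the same way to summed Trbj counts, Trbj1-3 gave -0.042. With the replicate block Trbv19 gave -0.0018. Leaving out a library gave log2 fold changes on both sides of 0 for Trbv12-2 (-0.021 to 0.040), Trbv15 (-0.21 to 0.032), Trbv17 (-0.10 to 0.85), Trbv19 (-0.15 to 0.21), Trbv23 (-0.39 to 1.09), Trbv29 (-0.16 to 0.036), Trbj1-3 (-0.10 to 0.23), Trbj1-4 (-0.094 to 0.29), Trbj1-5 (-0.036 to 0.19), Trbj1-6 (-0.032 to 0.32), Trbj1-7 (-0.077 to 0.43), Trbj2-1 (-0.065 to 0.24), Trbj2-4 (-0.0070 to 0.17), Trbj2-7 (-0.13 to 0.029), Trbc2 (-0.019 to 0.19) and Trbd2 (-0.050 to 0.098). Summing the Trbv12 and Trbv13 families, leaving out Trbv17 and Trbv23, leaving Trbv17 out of the Mtv-7 list, and per-length shares and coefficients of variation without replicate 3 with WT Tconv were chosen after seeing the data. The planned sum of V segments over 95% identical gave no value, because no pair reached that identity.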
